A study of Mus musculus with 8 samples.

Results

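The expression of 40 cell cycle and proliferation genes was measured by RNA sequencing in heart RNA from C57BL/6 mice aged 8 weeks. The members were taken by name as rows of a table of raw counts for 49315 genes, and all 40 were found. The table holds 4 libraries from female hearts (F1 to F4) and 4 from male hearts (M1 to M4), numbered as in the labels. The mice carried no stated allele or treatment. Whether the libraries of a sex came from different mice is not stated, nor is the heart region, so the p-values below measure the spread between libraries, which may be technical.

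A dividing cell passes from G1 into S phase, when cyclin D with Cdk4 or Cdk6 and cyclin E with Cdk2 inactivate the retinoblastoma proteins and release E2F factors. DNA is then copied by replication forks opened by the MCM helicase, and cyclin A and cyclin B with Cdk1 drive the cell into mitosis, where Plk1, the Aurora kinases, kinesins and kinetochore proteins separate the chromosomes. Cardiomyocytes of the mouse heart leave the cell cycle soon after birth, while endothelial cells, fibroblasts and blood-derived cells of the adult heart still divide at a low rate. The members comprise 18 genes of G2 and mitosis, 10 of DNA replication and nucleotide supply, 9 regulators of G1 and the G1/S transition, and 3 inhibitors of cyclin-dependent kinases.

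Cell cycle genes carry known promoter elements, and the windows below were chosen as examples of members that hold them. The cell cycle genes homology region (CHR), TTTGAA, is bound by the MuvB complexes that repress or activate G2 and mitosis genes. The CCAAT box is bound by NF-Y, and the E2F site was searched as TTTGGCGC or TTTCGCGC. All were searched on both strands in RefSeq windows of 300 bases (250 before to 50 after the start, GRCm38.p6), which 33 of the 40 members had. Of the members, Ccne2, Ccna2, Ccnd2, Mcm4, Kif20a, Ccnd1 and Aurkb were not matched. Capitals mark these motifs on either strand. The windows of Mki67 (chr7:135716330-135716629, minus strand), Cdk1 (chr10:69352863-69353162, minus strand), Ccnb2 (chr9:70421505-70421804, minus strand) and Plk1 (chr7:122159185-122159484, plus strand) are examples of mitotic members with a CHR. Those of Mcm5 (chr8:75109259-75109558, plus strand) and Mcm6 (chr1:128359656-128359955, minus strand) are examples of replication members with an E2F site.
Mki67: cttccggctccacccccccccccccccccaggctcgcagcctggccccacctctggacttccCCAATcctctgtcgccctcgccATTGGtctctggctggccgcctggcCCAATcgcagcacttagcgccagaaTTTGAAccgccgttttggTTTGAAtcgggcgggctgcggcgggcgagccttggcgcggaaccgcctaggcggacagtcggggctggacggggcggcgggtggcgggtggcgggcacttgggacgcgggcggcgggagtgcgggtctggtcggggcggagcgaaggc
Cdk1: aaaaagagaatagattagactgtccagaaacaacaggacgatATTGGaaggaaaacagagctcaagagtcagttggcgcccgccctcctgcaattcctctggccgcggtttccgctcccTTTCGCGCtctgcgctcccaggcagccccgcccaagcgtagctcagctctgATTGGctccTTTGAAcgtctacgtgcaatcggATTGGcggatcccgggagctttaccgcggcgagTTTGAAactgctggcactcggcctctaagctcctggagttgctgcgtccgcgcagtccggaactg
Ccnb2: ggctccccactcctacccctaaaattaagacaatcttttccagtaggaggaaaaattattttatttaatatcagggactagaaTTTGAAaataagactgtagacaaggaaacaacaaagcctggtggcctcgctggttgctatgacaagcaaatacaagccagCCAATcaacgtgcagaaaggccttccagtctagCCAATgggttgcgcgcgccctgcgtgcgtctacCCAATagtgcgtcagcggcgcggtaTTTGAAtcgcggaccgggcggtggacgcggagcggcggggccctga
Plk1: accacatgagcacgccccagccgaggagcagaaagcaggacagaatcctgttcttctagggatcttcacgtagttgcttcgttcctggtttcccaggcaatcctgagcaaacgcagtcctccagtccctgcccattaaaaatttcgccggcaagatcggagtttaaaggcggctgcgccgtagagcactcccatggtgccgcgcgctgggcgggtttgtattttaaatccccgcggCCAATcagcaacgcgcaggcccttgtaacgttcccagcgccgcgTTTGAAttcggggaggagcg
Mcm5: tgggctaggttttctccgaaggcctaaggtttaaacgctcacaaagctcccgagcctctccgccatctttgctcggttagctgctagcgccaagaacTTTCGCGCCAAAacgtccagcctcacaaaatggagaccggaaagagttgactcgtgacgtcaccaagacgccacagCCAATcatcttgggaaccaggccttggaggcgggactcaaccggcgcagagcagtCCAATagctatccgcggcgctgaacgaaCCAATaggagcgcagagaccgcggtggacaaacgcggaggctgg
Mcm6: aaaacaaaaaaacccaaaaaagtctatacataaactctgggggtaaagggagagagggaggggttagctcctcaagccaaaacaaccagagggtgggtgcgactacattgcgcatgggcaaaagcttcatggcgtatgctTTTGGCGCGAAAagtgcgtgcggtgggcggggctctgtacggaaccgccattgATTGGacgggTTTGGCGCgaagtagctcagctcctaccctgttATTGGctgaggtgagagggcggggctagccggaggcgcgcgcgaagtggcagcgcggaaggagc

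The 4 mitotic windows hold 1 or 2 CHR matches each, and the 2 replication windows hold none, a contrast set by the choice of examples. The mitotic members Bub1, Cenpe, Birc5 and Ccnb1 have no CHR match in their windows, and the replication member Mcm2 has 1. In Mcm5 and Mcm6, 2 E2F matches on opposite strands overlap in 1 run of capitals, while no 2 different motifs overlap in the windows shown. Over the members with a window, the CHR was found in 11 of 15 mitotic genes (73.3%), in 1 of 9 replication genes, in 0 of 6 G1/S regulators and in 0 of 3 inhibitors. It was found in 20.2% of the 27025 genes of the table, or 17.9% of its 32851 windows. Among other genes of the pathway it was in 36 of 51 of mitosis (70.6%), in 8 of 44 of replication (18.2%) and in 10 of 22 of G1/S (45.5%). The CCAAT box was in 13 of 15 mitotic and 8 of 9 replication members, against 41.1% of all genes. An E2F site was in 4 of 9 replication members (Mcm3, Mcm5, Mcm6 and Mcm7) and in 1 of 15 mitotic members (Cdk1), against 0.93% of all genes. A match describes letters in a window and is not evidence of a bound site, and the windows were not tested against the expression values.

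Total counts lay between 32746054 and 35467832 in the female libraries and between 39612848 and 47097765 in the male ones, so 1 count was worth 0.0218 (M4) to 0.0302 (F1) CPM, the count per 1000000 of the scaled library size. Of the 40 members, 39 passed the filter on low counts and 1, Bub1, did not. The markers of heart muscle were abundant in each library, with 8 cardiomyocyte markers summing to 85321 to 94068 CPM. The libraries also differed in their mixture. The 5 atrial markers summed to 452 CPM in M4 against 2286 to 2757 CPM in the other libraries, and the erythroid markers were lowest in F2 for 7 of 7. All 8 markers of white adipocytes were called higher in females, a direction called for 1.76% of all genes. They summed to 90.04 to 189 CPM in the female and 16.7 to 51.7 CPM in the male libraries.

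Levels were compared between genes as TPM, in which counts are divided by the exon length of each gene and scaled to a sum of 1000000. The inhibitor Cdkn1a had the highest mean over the 8 libraries, 62.9 TPM, followed by Cdk4 at 33.9 TPM, Pcna at 32.8 TPM, Ccnd2 at 27.5 TPM and Cdkn1b at 22.2 TPM. Cyclins D1 and D3 had means of 19.1 and 17.6 TPM. The kinases of G1 differed in level, with Cdk2 at 11.9 TPM and Cdk6, the other partner of the D cyclins, at 3.59 TPM, below Cdk4 and also below Mcm3, Mcm4, Mcm6, Mcm7 and Cenpf. The E cyclins lay far lower, at 0.988 TPM for Ccne1 and 0.974 TPM for Ccne2, close to the transcription factor E2f1 at 1.05 TPM. The 6 MCM helicase subunits lay between 2.61 TPM (Mcm5) and 7.10 TPM (Mcm7). Of the 18 mitotic members, 17 had means between 0.0947 TPM (Bub1) and 1.79 TPM (Cdc20), and only Cenpf was higher, at 4.50 TPM. Among the mitotic members, the ranges over the 8 libraries overlapped for 16 of the 17 pairs of neighbours in this order, all but Cenpf and Cdc20. They overlapped for 5 of 9 neighbouring pairs of replication members, 4 of 8 of G1/S regulators and 0 of 2 of inhibitors, so the order Cdkn1a, Cdkn1b, Cdkn2c held in every library. In bulk tissue, fewer cells of a type and less RNA per cell cannot be told apart.

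**Figure D1:**
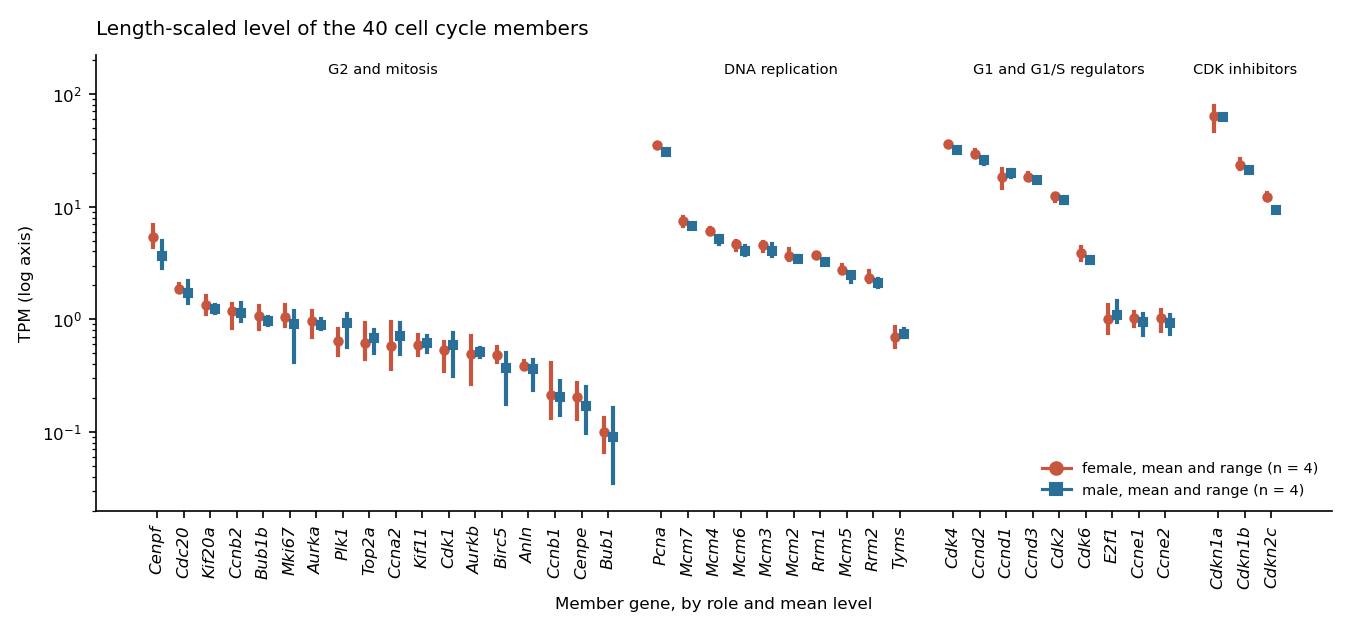
Mean TPM of each member on a log axis, in female (circles) and male (squares) libraries, 4 each, with lines from the lowest to the highest library. The mitotic members other than Cenpf have means over all 8 libraries of at most 1.79 TPM, while Cdk4, Pcna, the D cyclins, Cdkn1a and Cdkn1b have means of at least 17.6 TPM.

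Sex was the designed comparison, and it addresses which genes differ between adult male and female hearts. Of the 39 members tested, 1 was called at an adjusted p below 0.05 with edgeR's quasi-likelihood test, against 3.79% of all 16180 genes tested. That gene was Cdkn2c, called higher in females, a direction called for 1.76% of all genes, and 0 members were called higher in males, against 2.03% of all genes. Positive fold changes (male minus female) were found for 16 members and negative ones for 23, with a median of -0.02 on the log2 scale against -0.001 for all genes. At an unadjusted p below 0.05 there were 5 of 39 members, against 19.5% of all genes. The values of the 4 female and 4 male libraries did not overlap for 2 of 39 members, Cdkn2c and Rrm1, against 12.0% of all genes. Both were higher in females, a pattern that 5.66% of all genes had. These counts are close to or below the shares over all genes.

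**Figure D2:**
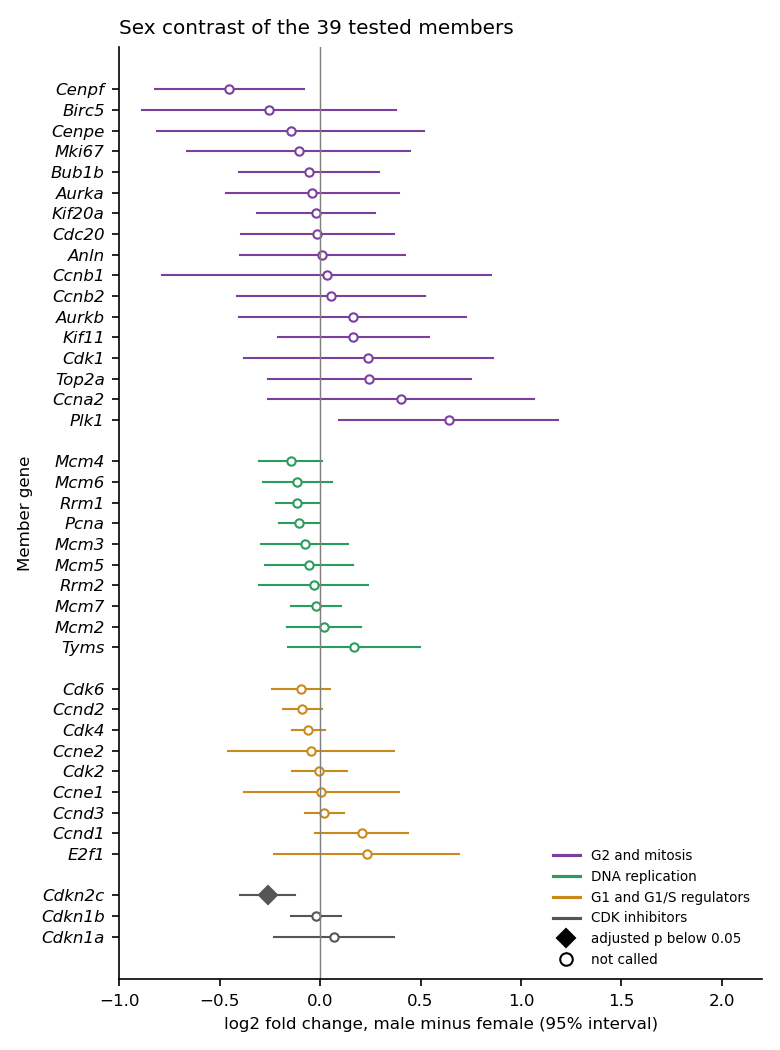
Log2 fold change of each tested member, male minus female, with its 95% interval from the edgeR fit on 4 female and 4 male libraries, coloured by role. Cdkn2c, the filled diamond, is the only member called. The widest intervals belong to mitotic members such as Ccnb1 (-0.79 to 0.85). Other mitotic members, such as Kif20a (-0.31 to 0.28), have narrower intervals than the G1/S member E2f1 (-0.23 to 0.69).

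Cdkn2c (ENSMUSG00000028551, chr4:109660876-109667189, minus strand, GRCm38) encodes an INK4 protein that binds Cdk4 and Cdk6 and keeps cyclin D from activating them. Its level was 14.2, 12.01, 12.5 and 12.7 CPM in F1 to F4 and 10.6, 10.8, 10.9 and 10.5 CPM in M1 to M4. Every female library was above every male library, and the male libraries were close together. The mean was 12.8 ± 0.937 CPM (SD, n = 4) in females and 10.7 ± 0.180 CPM (SD, n = 4) in males. The log2 fold change was -0.26 (SE 0.06, 95% interval -0.40 to -0.13), 1.20-fold higher in females, with an adjusted p of 0.0429 from edgeR's quasi-likelihood test. This call was close to the threshold. It held without F2 (adjusted p = 0.0458) and was lost when F1, F3, F4, M1, M2, M3 or M4 was left out (adjusted p = 0.0753 to 0.0921), with a log2 fold change between -0.30 and -0.21 throughout. It was also lost with the replicate number as a block (adjusted p = 0.0944) and without F2 and M2 together (adjusted p = 0.0902). The white adipocyte markers given above were also higher in the 4 female libraries. Within each sex the order differed. The markers summed lowest in F1 (90.04 CPM) and M3 (16.7 CPM), where Cdkn2c was highest of its sex. All 8 fibroblast markers had negative fold changes. Of these, 2 were called higher in females, against 1.76% of all genes, and 4 did not overlap between the sexes, against 12.0% of all genes. The fibroblast markers summed to 3289 to 3495 CPM in the female and 2793 to 3170 CPM in the male libraries. Of 8 mural markers, 1 was called in each direction and 3 did not overlap. Of 8 endothelial markers, 1 was called higher in males and 3 did not overlap. Over all genes, 2.03% were called higher in males, 1.76% were called higher in females and 12.0% did not overlap. The part of these markers in the Cdkn2c difference was not tested.

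The other inhibitors, Cdkn1a and Cdkn1b of the Cip/Kip family, were not called. Cdkn1a, a target of p53, was at 47.6, 40.7, 66.7 and 69.5 CPM in F1 to F4 and at 59.5, 61.1, 57.9 and 57.04 CPM in M1 to M4. The female libraries fell into a lower pair (F1 and F2) and a higher pair (F3 and F4), and all male libraries lay between these pairs. The SD of Cdkn1a was 14.1 CPM in females and 1.78 CPM in males around similar means of 56.1 and 58.9 CPM. Its log2 fold change was 0.07 (95% interval -0.23 to 0.37, adjusted p = 0.833). Cdkn1b lay between 39.4 and 43.3 CPM in 7 libraries and at 46.9 CPM in F2, with a log2 fold change of -0.02 (95% interval -0.15 to 0.10).

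**Figure D3:**
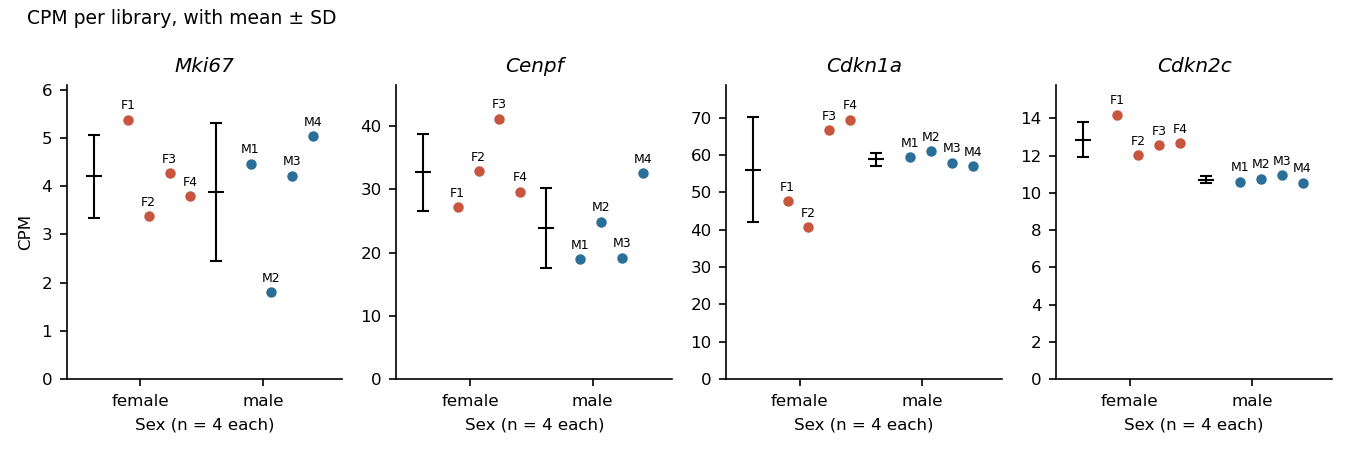
CPM of Mki67, Cenpf, Cdkn1a and Cdkn2c in each library (points, labelled), with the mean ± SD of 4 libraries per sex beside them. Cdkn2c is the only one of the 4 genes whose female and male points do not overlap, and M2 has the lowest Mki67 value.

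Among the G1/S regulators, 0 of 9 were called by edgeR, with 0 at an unadjusted p below 0.05. DESeq2's Wald test also called 0, with 1 at an unadjusted p below 0.05. Ccnd1 (cyclin D1) was at 41.2, 26.5, 36.9 and 32.8 CPM in F1 to F4 and at 37.2, 37.7, 42.4 and 41.0 CPM in M1 to M4. Library F2 was the lowest, and the sexes overlapped, with a log2 fold change of 0.21 (95% interval -0.03 to 0.44, adjusted p = 0.312). Ccnd2 lay between 96.6 and 114 CPM and Ccnd3 between 59.1 and 66.7 CPM, with no separation of the sexes. Cdk4, the main partner of the D cyclins, lay between 43.2 and 47.9 CPM, with a 95% interval of the log2 fold change from -0.14 to 0.03. Cdk2 had an interval of -0.14 to 0.13 and Cdk6 one of -0.24 to 0.05. The E cyclins and E2f1 were counted at 32 to 81 counts per library, and their intervals were wider, from -0.38 to 0.39 for Ccne1, -0.46 to 0.37 for Ccne2 and -0.23 to 0.69 for E2f1.

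Of the replication members, 0 of 10 were called by edgeR and 2, Pcna and Rrm1, had an unadjusted p below 0.05. DESeq2's Wald test called 0, with 0 at an unadjusted p below 0.05. The log2 fold changes were negative for 8 of 10, between -0.15 (Mcm4) and 0.17 (Tyms), with a median of -0.07 against -0.001 for all genes. Rrm1, the large subunit of ribonucleotide reductase, was at 15.7, 16.3, 16.3 and 16.6 CPM in F1 to F4 and at 15.4, 15.1, 15.2 and 14.3 CPM in M1 to M4. The sexes did not overlap, but the lowest female (F1) and the highest male (M1) lay close together, and the adjusted p was 0.234 at a log2 fold change of -0.11 (SE 0.05). Pcna, the sliding clamp of DNA polymerase, was at 35.0, 33.7, 31.2 and 34.0 CPM in F1 to F4 and at 32.2, 30.8, 31.8 and 29.5 CPM in M1 to M4. Library F3 lay among the male values, and the adjusted p was 0.241 at a log2 fold change of -0.11 (SE 0.05). The MCM subunits Mcm2 to Mcm7, which form the replicative helicase as a ring of 6, had log2 fold changes between -0.15 and 0.02. Mcm7 varied by 3.96% of its mean between the 8 libraries, no more than the 4.52% that counting error alone gives. Rrm2, the S phase subunit of ribonucleotide reductase, and Tyms, which makes thymidylate, lay between 2.28 and 2.99 CPM and between 1.32 and 2.13 CPM.

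The widest spreads between libraries were found among mitotic members, and no mitotic member was called. By edgeR 0 of 17 were called, with 2 (Plk1 and Cenpf) at an unadjusted p below 0.05. DESeq2's Wald test called 0, with 1 at an unadjusted p below 0.05. Mki67 (ENSMUSG00000031004, chr7:135689784-135716361, minus strand), the usual marker of cycling cells, was at 5.37, 3.37, 4.27 and 3.79 CPM in F1 to F4 and at 4.47, 1.80, 4.22 and 5.04 CPM in M1 to M4. Library M2 was far below the rest, and the sexes overlapped. From 71 counts, the exact 95% Poisson interval of Mki67 in M2 was 1.41 to 2.27 CPM, below the lower bounds in all 7 other libraries, the next of which was 2.80 CPM in F2. Such intervals cover counting error only. The sex difference of Mki67 was -0.11 on the log2 scale (95% interval -0.66 to 0.45, adjusted p = 0.864). Ccnb2 varied by 18.05% of its mean over the 8 libraries, where counting error alone gives 19.31%. Kif20a varied by 10.66% against 11.52%. Aurka (17.53% against 16.70%), Kif11 (15.58% against 14.98%) and Aurkb (23.80% against 21.63%) were close to counting error. Others lay well above it, such as Mki67 (27.37% against 8.476%), Top2a (28.14% against 10.80%) and Cenpf (26.35% against 3.125%). The part of counting error in single low values was not tested.

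Plk1, the kinase that acts from mitotic entry to cytokinesis, was at 0.725, 0.411, 0.579 and 0.507 CPM in F1 to F4 and at 0.922, 0.533, 0.961 and 1.03 CPM in M1 to M4. Males M1, M3 and M4 were above all females, and M2 lay among them. With 15 to 47 counts per library, the log2 fold change was 0.64 (SE 0.25, 95% interval 0.10 to 1.18) and the adjusted p 0.186. Cdk1, the kinase of mitotic entry, was at 0.876, 0.466, 0.827 and 0.776 CPM in F1 to F4 and at 1.12, 0.457, 1.05 and 0.829 CPM in M1 to M4. Its lowest values were in F2 and M2, 1 in each sex. Its log2 fold change was 0.24 (95% interval -0.38 to 0.86).

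The partner cyclins Ccna2, Ccnb1 and Ccnb2 were also lowest in F2. M2 was the lowest male for Ccna2 and Ccnb1, and for Ccnb2 it lay level with M4. Ccna2 (cyclin A2) was at 1.57, 0.576, 0.992 and 0.627 CPM in F1 to F4 and at 1.63, 0.862, 1.31 and 1.16 CPM in M1 to M4. Library F2 was lowest of the females and M2 lowest of the males, while F4 was also below M2. Ccnb2 lay at 0.494 CPM in F2 and 0.634 CPM in M2, with 0.633 CPM in M4 and 0.776 to 0.914 CPM in the other libraries. Ccnb1, the main mitotic cyclin, was close to the counting limit at 8 to 24 counts, with 0.219 CPM in F2 and 0.254 CPM in M2 as its lowest values. F4 and F1 followed closely, at 0.269 and 0.272 CPM from 9 counts each. Top2a, the topoisomerase that untangles sister chromatids, was lowest in F2 (1.56 CPM) and next lowest in M2 (1.93 CPM), and highest in F1 (3.38 CPM). Among the kinetochore and spindle genes, Cenpe was lowest in M2 (0.355 CPM) and F2 (0.439 CPM), against 0.516 to 0.936 CPM elsewhere. Birc5 (survivin), a subunit of the chromosomal passenger complex, was at 0.254 CPM in M2 and at 0.461 to 0.744 CPM elsewhere. In F2 Birc5 was at 0.603 CPM, above F1 and M1. Its partner kinase Aurkb was at 0.302 CPM in F2 and at 0.567 to 0.799 CPM elsewhere. Other members were lowest outside F2 and M2, such as Kif11 in F1 (0.936 CPM), Bub1b in F3 (1.351 CPM) and Cdc20 in M4 (1.091 CPM). The checkpoint kinase Bub1 had only 3 to 13 counts per library, or 0.0655 to 0.305 CPM, and was not tested.

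Cenpf (ENSMUSG00000026605, chr1:189640606-189688086, minus strand), which encodes a large kinetochore and nuclear envelope protein, had its lowest value outside F2 and M2, as did Bub1b, Kif11 and Cdc20. Cenpf was at 27.2, 32.9, 41.2 and 29.6 CPM in F1 to F4 and at 19.0, 24.9, 19.2 and 32.5 CPM in M1 to M4. Males M1, M2 and M3 were below all females, and M4 lay among the females. The log2 fold change was -0.45 (SE 0.17, 95% interval -0.82 to -0.08), 1.37-fold higher in females, with an adjusted p of 0.169. Without M4 it was -0.64 with an adjusted p of 0.0365, and with no filter on low counts the adjusted p was 0.0367. Cenpf was the only member other than Cdkn2c called in any alternative. Its exon length, 15.4 kb, is the largest of the members. Over the 678 tested genes of at least 12 kb, the median deviation from each gene's mean was positive in F2, F3 and M4 (0.036 to 0.051 on the log2 scale) and negative in the other 5 libraries (-0.045 to -0.009). F2, F3 and M4 were also the 3 libraries with the highest Cenpf values, and the part of transcript length in them was not tested. M4 was the library with few atrial transcripts, whose part was not tested either.

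Taken library by library, the mitotic members were low in F2 and M2, which carry the same replicate number. Whether these libraries share a preparation step is not stated, and its part was not tested. Of 17, 13 had their lowest value of the 8 libraries in F2 (8 genes) or M2 (5 genes), and 0 had their highest there. Over all genes tested, 26.2% were lowest and 26.9% highest in F2 or M2. Within the females F2 was lowest for 12 of 17, and within the males M2 was lowest for 11 of 17. The median deviation of the mitotic members from their mean over libraries was -0.45 in F2 and -0.24 in M2 on the log2 scale, and between 0.015 and 0.289 in the other 6 libraries. All 17 were below their mean in M2 and 15 of 17 in F2. The replication members did not share this: 1 of 10 was lowest in F2 or M2, and their median deviation lay between -0.05 and 0.15 in every library. Of the 9 G1/S regulators, 2 were lowest there. This pattern was noticed in these libraries and is given as a description, without a test.

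Of the other genes of mitosis, 67 genes such as condensin and kinetochore subunits, 52 were tested. In M2, 25 of these (48.1%) were lowest and 1 was highest, against 10.5% lowest and 10.5% highest of all genes. In F2, 10 (19.2%) were lowest and 5 highest, against 15.6% lowest and 16.4% highest of all genes, so the share lowest in F2 was near that of all genes. Their median deviation was -0.27 in M2 and -0.15 in F2, and 0.25 in F1. Cell mixture also differed in these libraries. The 7 erythroid markers summed to 557 CPM in F2, the lowest of all libraries, and to 5656 CPM in M2. The macrophage markers summed to 355 CPM in F2, the lowest of the 8, and to 460 CPM in M2, within the range of the others. Endothelial markers summed to 1453 CPM in F2, the highest, and to 1314 CPM in M2. The part of these markers in the mitotic pattern was not tested.

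**Figure D4:**
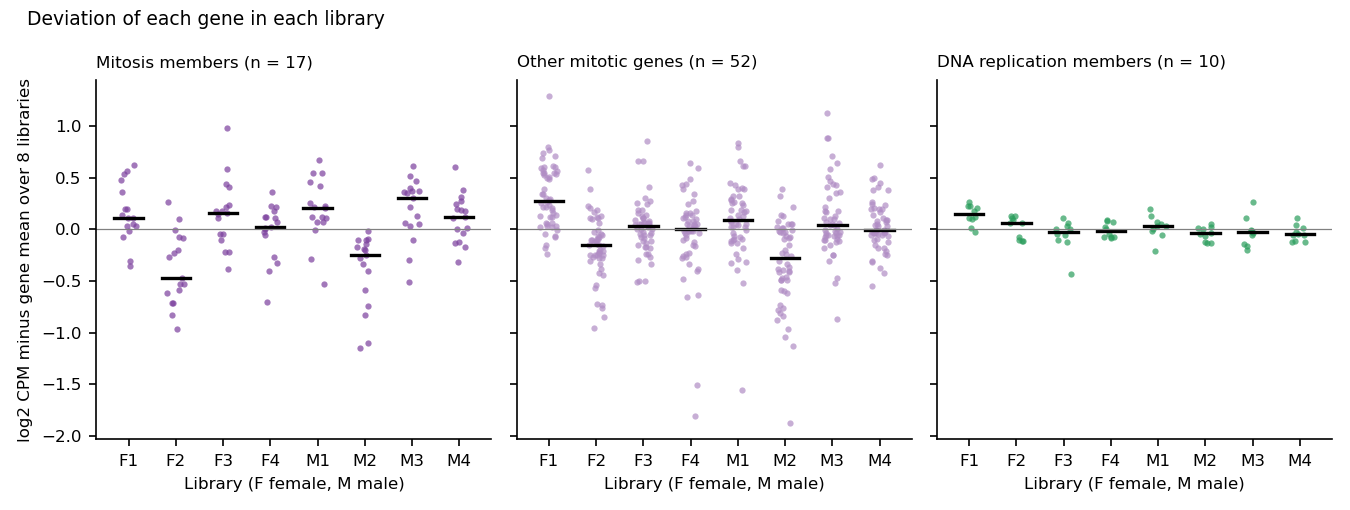
Deviation of each gene's log2 CPM from its own mean over 8 libraries, for the 17 mitotic members, 52 other mitotic genes and 10 replication members, with the median as a bar. The bars of the first 2 panels are lowest in F2 and M2, and those of the third stay between -0.05 and 0.15.

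Covariation between libraries was measured on log2 CPM. After each gene was centred within sex, the 136 pairs of mitotic members had a median Pearson r of 0.459, and 117 pairs were positive. The 45 pairs of replication members had a median of 0.114 with 24 positive, the 36 pairs of G1/S regulators a median of 0.005 with 18 positive, and all pairs of tested genes a median of 0. Without F2 and M2 the median of the mitotic pairs was 0.049 with 74 of 136 positive, and that of the replication pairs 0.168 with 30 of 45 positive. F2 and M2 were left out because the mitotic members were low there, so this choice itself favours a lower r, and no other pair of libraries was left out for comparison. The pairs share libraries, depth and genes, and no p-value is given for them.

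**Figure D5:**
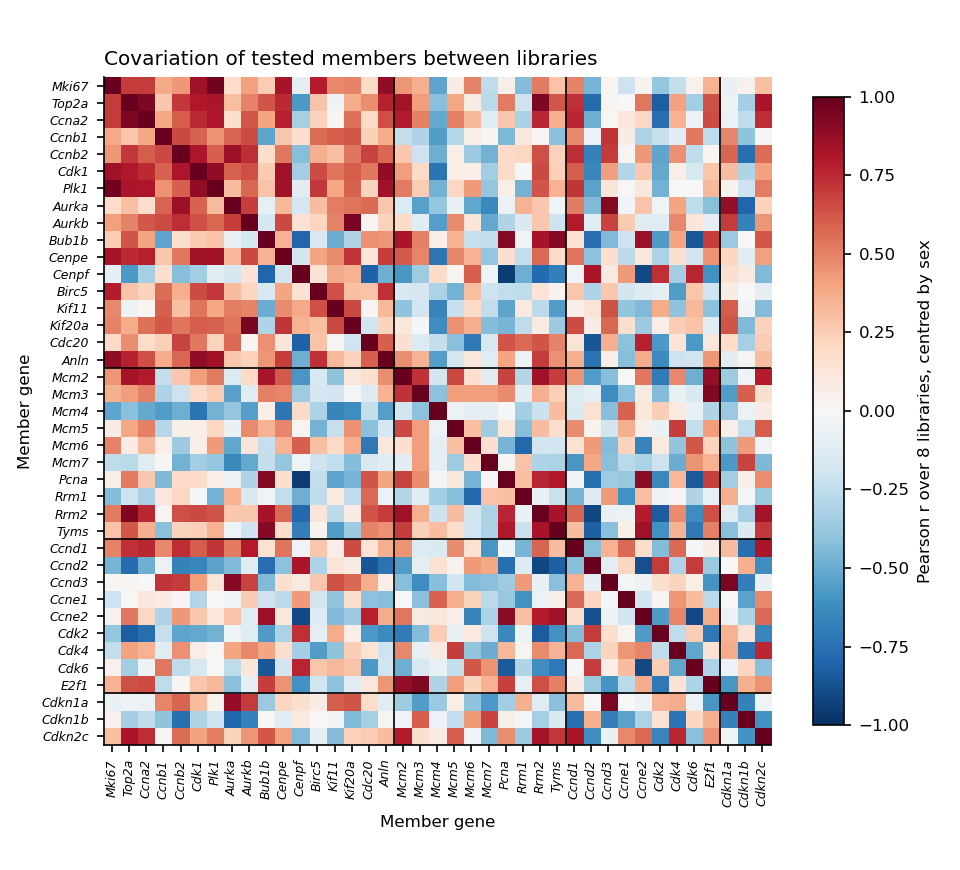
Pearson r between the log2 CPM of each pair of tested members over 8 libraries, centred by sex, with lines between mitotic, replication, G1/S and inhibitor genes. The mitotic block is mostly positive (117 of 136 pairs), and 17 of the 19 negative pairs involve Cenpf (11 pairs) or Bub1b (7 pairs), which share 1.

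Mki67 was compared with each of the 38 other tested members over the 8 libraries. Its r was positive with all 16 other mitotic members, with a median of 0.445, against a median of -0.01 over all tested genes and of 0.452 over the 52 other genes of mitosis, of which 47 were positive. After centring by sex 15 of 16 were positive (median 0.486), with Cenpf at -0.088. Without M2 13 of 16 were positive (median 0.429), and Cenpf, Birc5 and Cdc20 were not. By an exact two-sided permutation test over all 40320 pairings, 3 of the 38 relations had a raw p below 0.05 for Pearson's r and 0 after Benjamini-Hochberg adjustment over the 38. For Spearman's rho 1 relation, that of Cenpe, passed after adjustment. Top2a (rho 0.857, exact permutation p = 0.0107, adjusted 0.204) and Ccna2 (rho 0.762, exact permutation p = 0.0368, adjusted 0.365) did not pass. After centring by sex, with pairings permuted within sex, 5 relations had a raw p below 0.05 for r and 0 passed. The smallest was that of Plk1 (r 0.962, exact permutation p = 0.00347, adjusted 0.132). Cenpe, the kinesin that aligns chromosomes, had an r of 0.834 (exact permutation p = 0.00394, adjusted 0.150) and a rho of 0.952 (exact permutation p = 0.00114, adjusted 0.0434). With 1 library left out in turn, the exact permutation test of its rho gave adjusted p-values of 0.106 to 0.256. Its r was 0.629 without M2 and F1, the libraries farthest from the median of Mki67. Cdk1 had an r of 0.766 (exact permutation p = 0.0174, adjusted 0.225), a rho of 0.738 (p = 0.0458, adjusted 0.365) and an r of 0.703 without M2 and F1. Anln, an anillin needed for cytokinesis, had an r of 0.874 (exact permutation p = 0.0177, adjusted 0.225) and a rho of 0.643 (p = 0.0962, adjusted 0.365). Its r was 0.345 without M2 and F1, so its relation rested largely on those libraries. The r of Birc5 went from 0.788 to 0.0792 without M2 and F1. It was not positive without M2 alone, so that relation rested on M2. Other relations were higher without M2 and F1, with r going from 0.553 to 0.875 for Plk1, from 0.347 to 0.926 for Kif11, from 0.318 to 0.804 for Aurkb and from 0.513 to 0.787 for Ccna2. The median over the 16 mitotic members went from 0.445 to 0.546, with 13 of 16 positive. Cenpf had an r of 0.0709 with Mki67. The median r was 0.170 with the replication members and -0.025 with the G1/S regulators.

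Other genes of the pathway were read from lists set up by role. Of 52 tested genes of mitosis, 0 were called by edgeR and 0 by DESeq2's Wald test. By edgeR 2 had an unadjusted p below 0.05, against 19.5% of all genes. The smallest p was that of Ncapg2, a condensin II subunit, at a log2 fold change of -0.40 (SE 0.14, adjusted p = 0.131). Of 53 tested genes of replication, 1 was called higher in males, against 2.03% of all genes, and 0 higher in females. At an unadjusted p below 0.05 there were 4, against 19.5% of all genes. The called gene was Gmnn (geminin, an inhibitor of replication licensing). It was at 33.2, 29.7, 31.7 and 29.9 CPM in F1 to F4 and at 34.7, 36.1, 36.7 and 34.9 CPM in M1 to M4. All male libraries were above all female ones. In this list 3 of 53 genes (5.66%) did not overlap between the sexes, against 12.0% of all genes. The log2 fold change of Gmnn was 0.19 (SE 0.04, adjusted p = 0.0388 by edgeR). The call was lost with the replicate block (adjusted p = 0.0779), without F2 and M2 together (adjusted p = 0.173), and without F2, F3, F4, M1, M2, M3 or M4 in turn (adjusted p = 0.0552 to 0.114). Of 25 other G1/S genes, 0 were called by edgeR and 0 by DESeq2's Wald test. By edgeR 4 had an unadjusted p below 0.05, against 19.5% of all genes. The smallest p was that of Tfdp2, a dimerization partner of E2F, at 0.25 (SE 0.09, adjusted p = 0.150). It was called with no filter (adjusted p = 0.0356), without M2 (0.0220) and without F2 and M2 together (0.0296).

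Of 16 targets of p53, the factor that induces Cdkn1a, 1 was called by edgeR, against 3.79% of all genes. DESeq2's Wald test called 3. It also called more of all genes than edgeR did, as given in the last section, so the share of 3.79% does not apply to it. By edgeR 7 of 16 had an unadjusted p below 0.05, against 19.5% of all genes. The fold changes were positive for 11 and negative for 5, from -0.40 to 0.41 on the log2 scale. Sesn1, a stress-induced sestrin, was called higher in males. It was at 118, 110, 117 and 120 CPM in F1 to F4 and at 153, 134, 155 and 169 CPM in M1 to M4, with no overlap. Its log2 fold change was 0.40 (SE 0.06, adjusted p = 0.00634), and it was called in all 18 alternatives, including each library left out in turn. The median log2 fold change of the p53 targets was 0.08, against -0.03 for the other genes of mitosis, -0.03 for those of replication, -0.003 for those of G1/S and -0.001 for all genes.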

How the data were processed

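RNA from C57BL/6 hearts was sequenced in 8 libraries, 4 female and 4 male. Raw counts per gene were deposited by the authors, and the submitters' processing notes name Trimmomatic 0.36, STAR 2.5.2b, featureCounts of Subread 1.5.2 and GRCm38 (mm10). The annotation, strand setting and treatment of reads with several matches are not given in the sources used here, so overlapping genes and close copies may share reads. Every count also stood in the deposited tables of the single libraries (100%). The authors also deposited a normalized signal for 16160 genes, which the values show to be counts over library-wise size factors of 0.864 to 1.20 (100% whole within 0.01 when multiplied back).

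Symbols matched 48970 of 49315 gene IDs. After filterByExpr (at least 10 counts, total of 15) and TMM scaling, males were compared with females by edgeR 4.0.16 (R 4.3.3, quasi-likelihood test), and p-values were adjusted by Benjamini-Hochberg over the 16180 genes kept. The common biological variation was 0.0814. CPM rests on TMM-scaled sizes, log2 CPM a prior count of 2, and TPM the deposited exon lengths. The alternatives were DESeq2 size factors, upper quartile scaling, no filter, 1 CPM in 4 libraries, DESeq2 1.42.0 (Wald test), limma-voom (limma 3.58.1), limma on log2 of the normalized signal plus 1, the replicate number as a block and each library left out. Chosen after the data were seen were edgeR on the reads recovered from the normalized table, which called 604 of all genes, and F2 and M2 left out together. The procedure was tested on simulated data.

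The members and gene lists were chosen with earlier results of these data known. All members may be named. Of each other list, up to 2 called genes per direction with the smallest p are named, or, in a list without a call, its gene of smallest p. Promoter windows came from RefSeq (GRCm38.p6).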

Additional observations from a re-analysis of the deposited data

Results flagged for a closer look

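Of 78 groups of 4 libraries (39 members in each sex), 9 held 1 library far from the other 3, with a gap above 0.829 of the whole range, the 95% critical value of Dixon's test. Chance flags about 1 in 20 such groups. Among mitotic members, Ccnb1 was at 0.662 CPM in F3 against 0.219 to 0.272 CPM in the other females, and Ccnb2 was at 0.494 CPM in F2 against 0.776 to 0.799 CPM. Among replication members, Mcm2 was high in F1 (11.7 CPM against 9.21 to 9.52 CPM) and in M1 (10.9 CPM against 9.77 to 9.91 CPM). Mcm5 was low in M3 (3.70 CPM against 4.30 to 4.41 CPM), Mcm6 was low in F4 (7.82 CPM against 8.80 to 8.91 CPM) and Tyms was high in M3 (2.13 CPM against 1.80 to 1.84 CPM). E2f1 was high in M1 (1.97 CPM against 1.27 to 1.36 CPM), and Cdkn1b was high in F2 (46.9 CPM against 39.99 to 40.3 CPM).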

How the results depend on the processing

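The count of 1 member called became 2 with no filter, 0 with the replicate block (edgeR, 5 at an unadjusted p below 0.05) and 0 without F2 and M2 together (3 at an unadjusted p below 0.05). Leaving out 1 library in turn gave 0 to 1, where the 1 without F2 was Cdkn2c and the 1 without M4 was Cenpf. The count over all genes, 613, became 971 with DESeq2's Wald test and 232 without F2 and M2, and 315 to 490 with 1 library left out. The count of 2 among the other cell cycle genes and p53 targets became 5 with no filter, 4 with DESeq2's Wald test and 1 with the replicate block, and 1 to 3 with 1 library left out. The other settings kept these counts within 1.5 times. For Pearson's r, the count of relations with Mki67 past the adjusted threshold was 0 over the 8 libraries and in all 10 alternatives. For Spearman's rho it was 1 (Cenpe) over the 8 libraries and with a prior count of 0.5, and 0 after centring by sex and with each library left out. For the 38 members not called, 676 alternative values held 2 calls, both of Cenpf, and 20 members took the other sign in at least 1 alternative while uncalled. Fewer samples enter each fit with libraries left out. The cause of the other moves was not tested.

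The labels do not say whether samples with the same replicate number share more than that number. Deviations of same-numbered female and male libraries correlated at 0.024, -0.016, 0.054 and -0.047. Of the female libraries, 0 of 4 correlated best with their own number. These values cannot show whether a shared step moved a smaller set of genes. With the block, the count over all genes was 427. Depth limited the mitotic members most: Ccnb1 had 8 to 24 counts and Bub1 3 to 13.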
